A study of Mus musculus with 16 samples.

Results

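Ly6g, Mcemp1, Retnlg, Mmp8 and Mmp9, 5 genes known as markers of late neutrophil maturation, were followed through the RNA-seq and ATAC-seq data of monocytes sorted for the receptor Nrp1 (neuropilin-1, which binds semaphorins and VEGF). They are 5 of 25562 genes in the count table, and 4 of them hold 9 of the 40796 regions in the table of open chromatin. The 5 were chosen by symbol, because their RNA differences between Nrp1 high and Nrp1 low cells were smaller than those of secondary granule genes. The differences between these groups are therefore given as a description, and the counts of calls among the 5 support nothing. ATAC values come from other libraries but from the same contrast, and are treated in the same way.

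All cells came from the spleens of 7-day-old wild-type mice, labelled C57BL/6J in the RNA protocol and C57BL/6 in the ATAC protocol. They are labelled myeloid-derived suppressor cells, a name for immature myeloid cells that restrain immune responses, and the protocol calls them monocytes. The groups differed in surface Nrp1 alone as far as the labels state, with 3 Nrp1 high and 3 Nrp1 low libraries for RNA (80000 cells each) and 5 of each for ATAC-seq (50000 cells each), which marks accessible DNA by transposase cutting. The labels do not give the other markers of the sorting gate, whether Ly6G was among them, or whether libraries came from separate animals. They speak of pooled RNA, so the SD and p-values given here cover variation among libraries that may be of technical origin.

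Neutrophils fill their granules in sequence while they mature in bone marrow. Primary granule proteases such as myeloperoxidase and elastase are made first, the secondary granule proteins lactoferrin and cathelicidin next, and gelatinase and secretory components last. Ly6g encodes a GPI-anchored surface antigen that defines mouse neutrophils. Mcemp1 encodes a transmembrane protein first described in mast cells. Retnlg encodes resistin-like gamma, a small secreted protein of the resistin family. Mmp8 encodes neutrophil collagenase and Mmp9 gelatinase B, matrix metalloproteinases that are stored in granules and act on collagens outside the cell.

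RefSeq places the genes on GRCm38.p6 as follows: Ly6g (ENSMUSG00000022582) at chr15:75155261-75159128, Mcemp1 (ENSMUSG00000013974) at chr8:3665762-3668905, Retnlg (ENSMUSG00000022651) at chr16:48872608-48874498, Mmp8 (ENSMUSG00000005800) at chr9:7558429-7568486 and Mmp9 (ENSMUSG00000017737) at chr2:164940326-164955850. Promoter sequences were found for 4 of them. The 250 bases before the start are shown because the ATAC table separates them: the windows of Mmp8 and Mcemp1 lie wholly within a deposited region (250 of 250 bases), and those of Ly6g and Retnlg share 0 bases with any. They run 5′ to 3′ on the plus strand, at chr9:7558179-7558428 for Mmp8, chr8:3665512-3665761 for Mcemp1, chr15:75155011-75155260 for the first of 2 Ly6g starts and chr16:48872358-48872607 for Retnlg. Capitals mark matches to the motifs named in the next paragraph.
Mmp8: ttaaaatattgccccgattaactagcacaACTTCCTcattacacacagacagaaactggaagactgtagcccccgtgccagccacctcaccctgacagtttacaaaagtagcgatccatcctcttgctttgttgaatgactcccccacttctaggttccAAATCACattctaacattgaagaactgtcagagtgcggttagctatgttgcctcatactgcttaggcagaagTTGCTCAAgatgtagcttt
Mcemp1: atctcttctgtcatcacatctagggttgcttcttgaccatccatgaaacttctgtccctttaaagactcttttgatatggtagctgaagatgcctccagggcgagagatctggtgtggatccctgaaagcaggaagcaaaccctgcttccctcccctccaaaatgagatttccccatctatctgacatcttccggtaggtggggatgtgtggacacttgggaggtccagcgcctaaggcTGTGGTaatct
Ly6g: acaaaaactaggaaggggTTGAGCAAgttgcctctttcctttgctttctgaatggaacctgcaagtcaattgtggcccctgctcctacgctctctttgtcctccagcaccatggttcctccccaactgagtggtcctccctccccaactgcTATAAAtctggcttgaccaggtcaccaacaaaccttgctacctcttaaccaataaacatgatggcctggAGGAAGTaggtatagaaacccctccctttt
Retnlg: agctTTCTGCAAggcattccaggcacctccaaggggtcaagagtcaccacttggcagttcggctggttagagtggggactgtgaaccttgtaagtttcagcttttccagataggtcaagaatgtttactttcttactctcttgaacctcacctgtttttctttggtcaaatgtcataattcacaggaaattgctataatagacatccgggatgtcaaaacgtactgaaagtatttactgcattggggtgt

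These windows were searched on both strands for 5 motifs, chosen after the sequences had been read. The C/EBP letters TTGCNNAA occurred in 9.56% of 32851 RefSeq windows of the same length, the PU.1 letters AGGAAGT in 7.69%, the RUNX letters TGTGGT in 14.0%, the GFI1 letters AAATCAC in 2.75% and the TATA letters TATAAA in 12.4%. Mmp8 held the C/EBP letters 19 to 12 bases before its start, the PU.1 letters on the other strand 221 to 215 bases before it, and the GFI1 letters 91 to 85 bases before it. Ly6g held the C/EBP letters on the other strand 232 to 225 bases before its first start, the TATA letters at 99 to 94 and the PU.1 letters at 30 to 24. The Ly6g C/EBP match TTGAGCAA is the reverse complement of the Mmp8 match TTGCTCAA. Retnlg held 1 C/EBP match at 246 to 239 bases, and Mcemp1 1 RUNX match at 11 to 6 bases. No marked matches overlapped, and a match describes letters, not binding. The share of G and C was 44.8% for Mmp8, 49.6% for Mcemp1, 49.2% for Ly6g and 43.2% for Retnlg, against a median of 52.4% over all windows.

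Total counts of the RNA libraries lay between 23395363 and 35127433. CPM, the unit used for levels, scale each gene's count to a fixed library size after TMM scaling. They are not corrected for transcript length, so levels are compared between libraries and not between genes. Nrp1 itself, which checks the labels, had 97.3, 89.8 and 111.4 CPM in the high libraries, against 20.1, 57.8 and 41.5 CPM in the low ones. Monocyte markers were present in both groups. Ly6c2, the Ly6C antigen of classical monocytes, averaged 2018 CPM in the high and 2070 in the low group, and Csf1r, the M-CSF receptor, 482.3 and 420.2 CPM. Of 15 monocyte markers edgeR's test called 0 (3 at an unadjusted p under 0.05), DESeq2 2 and limma-voom 0. The log2 fold change was above 0 in 10 of the 15 and below 0 in 5, with a median of 0.13. In 4 of the 15 every Nrp1 high library lay above every low one (9.51% of all genes), and in 1 below (10.8%). The lowest p values belonged to Cd14, an endotoxin co-receptor (18.9 CPM in high, 47.4 in low), and F13a1, a coagulation factor subunit of monocytes (881.2 and 517.6).

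Each of the 5 genes stood lower in the 3 Nrp1 high libraries than in the 3 Nrp1 low libraries, by 1.64 to 2.90-fold in the means. Retnlg and Mmp9 differed most, and Mcemp1 and Mmp8 least. The 11 secondary granule genes differed by 2.75 to 13.1-fold in the same libraries. Fewer cells of a type and less RNA per cell cannot be told apart in such bulk samples.

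**Figure D1:**
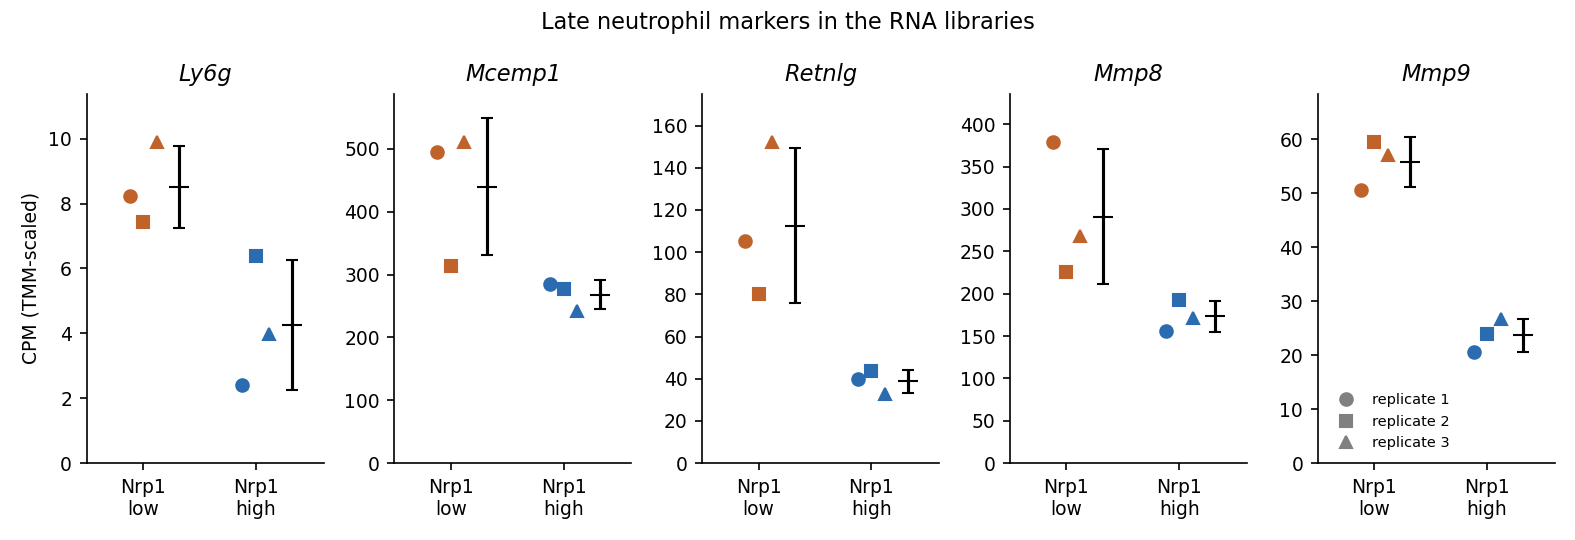
Level in CPM (TMM-scaled, linear axes from 0) of the 5 genes in each RNA library. Points are libraries, with shape for the replicate number, and the bar beside them is the mean with the SD of 3. Every Nrp1 high point lies below every Nrp1 low point, by least in Mcemp1, Ly6g and Mmp8.

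Ly6g, the antigen by which mouse neutrophils are usually stained, had 75 to 259 counts per library. Its levels were 8.23, 7.43 and 9.91 CPM in Nrp1 low replicates 1, 2 and 3, and 2.41, 6.39 and 3.99 CPM in the high replicates. The groups did not overlap, but Nrp1 high replicate 2 came close to the lowest low library, and the high libraries spanned 2.65-fold among themselves. The means were 8.52 ± 1.26 and 4.26 ± 2.00 CPM (SD, n = 3), a log2 difference of -0.999 ± 0.41 (SE; 95% interval -1.94 to -0.06). Ly6g has close relatives in its gene cluster that can share reads, so its value is uncertain. Of 10 other Ly6 family genes tested, edgeR, DESeq2 and limma-voom each called 0 (1 at an unadjusted p under 0.05 in each). The lowest p values were those of Ly6i, with means of 22.2 (low) and 9.49 CPM (high), and Ly6d, with 91.3 and 63.3 CPM. In both, the groups overlapped.

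Mcemp1 stood at 494.7, 313.8 and 511.4 CPM in Nrp1 low replicates 1, 2 and 3. The high libraries held 285.7, 277.6 and 241.4 CPM. Nrp1 low replicate 2 lay near the high libraries, 1.10-fold above the highest of them, while the other low libraries lay well above. The means were 439.9 ± 109.6 and 268.2 ± 23.6 CPM (SD, n = 3), and the log2 difference was -0.71 ± 0.23 (SE; 95% interval -1.25 to -0.18).

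Retnlg stood at 105.4, 79.96 and 152.4 CPM in the low libraries and at 39.9, 43.8 and 32.8 CPM in the high libraries. Its lowest low library was still 1.83-fold above its highest high library. The means were 112.6 ± 36.7 and 38.8 ± 5.56 CPM, 2.90-fold apart, with a log2 difference of -1.54 ± 0.27 (SE; 95% interval -2.16 to -0.91). The other resistin genes were scarce in all libraries. Retn, resistin itself, averaged 0.265 CPM (low) and 0.386 CPM (high). Retnla and Retnlb had at most 8 and 13 counts in any library and were not tested.

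Mmp8 stood at 379.3, 225.5 and 267.8 CPM in the low libraries and at 156.5, 192.6 and 171.3 CPM in the high libraries. Nrp1 low replicate 1 was its highest library, and low replicate 2 lay 1.17-fold above the highest high library. The means were 290.9 ± 79.4 and 173.5 ± 18.1 CPM (SD, n = 3), and the log2 difference was -0.75 ± 0.23 (SE; 95% interval -1.28 to -0.21). Mmp9, the other metalloproteinase, stood at 50.5, 59.5 and 57.2 CPM in the low libraries and at 20.6, 23.9 and 26.7 CPM in the high libraries. Mmp9 separated the groups most widely, with a gap of 1.89-fold between the lowest low and the highest high library. The means were 55.7 ± 4.67 and 23.7 ± 3.04 CPM, and the log2 difference was -1.23 ± 0.21 (SE; 95% interval -1.72 to -0.74).

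At a Benjamini-Hochberg adjusted p under 0.05 over 15541 genes, edgeR's quasi-likelihood fit called 0 of the 5 (0.676% of all genes were called lower and 0.682% in either direction). Mmp9 and Retnlg lay just outside, with adjusted p = 0.0517 and adjusted p = 0.0582, and the other 3 between 0.337 and 0.434. DESeq2 called both Retnlg and Mmp9, and limma-voom called Mmp9 (adjusted p = 0.0441). All 5 were under an unadjusted p of 0.05 (6.72% of all genes were, in this direction), and in all 5 the groups did not overlap (10.8% of all genes lay apart in this direction and 9.51% in the other). The log2 fold change was below 0 in all 5 and in 49.4% of all genes. The genes were chosen with earlier results of this contrast known, so these counts are given for reference only.

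The 5 genes did not move in step among the libraries of a group. Nrp1 low replicate 2 was the lowest low library for Ly6g, Mcemp1, Retnlg and Mmp8, and the highest for Mmp9. Highest among the low libraries was replicate 3 for Ly6g, Mcemp1 and Retnlg, and replicate 1 for Mmp8. Within groups, the deviations from the group means in log2(CPM + 1) correlated most between Mcemp1 and Retnlg (r = 0.854 over 6 libraries that share their depth and scaling) and least between Mcemp1 and Mmp9 (r = -0.579). Mmp9 also ran against Mmp8 (r = -0.366) and Retnlg (r = -0.283), but not against Ly6g (r = 0.427). Pairs among Ly6g, Mcemp1, Retnlg and Mmp8 were all positive, from 0.201 to 0.854. The ratio of Mmp8 to Mmp9 was 7.51, 3.79 and 4.69 in the low and 7.60, 8.06 and 6.42 in the high libraries. Low replicate 1 therefore lay with the high libraries in this ratio.

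The secondary granule genes differed more than the late markers in the same libraries, which is the pattern the 5 genes were chosen for. Of 11 secondary granule genes 10 fell by edgeR's test, the exception being Orm1, an acute phase glycoprotein (11.6 against 4.22 CPM). Camp, the cathelicidin of these granules, fell 13.1-fold, Ngp, the neutrophilic granule protein, 11.6-fold, and Chil3 and Chil1, chitinase-like proteins, 10.9 and 9.33-fold. Itgb2l, an integrin beta subunit, fell 8.50-fold, Olfm4, a granule glycoprotein, 6.85-fold, and Cd177, a neutrophil surface protein, 6.83-fold. Ltf (lactoferrin) fell 6.40-fold, Pglyrp1, a peptidoglycan-binding protein, 5.93-fold, and Lcn2, which binds siderophores, 5.39-fold. The median log2 fold change was -2.77 over these 11 genes, -0.999 over the 5 late markers and 0.01 over all genes tested. Without Nrp1 high replicate 3 edgeR called 0 of the 11 (all 11 at an unadjusted p under 0.05).

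**Figure D2:**
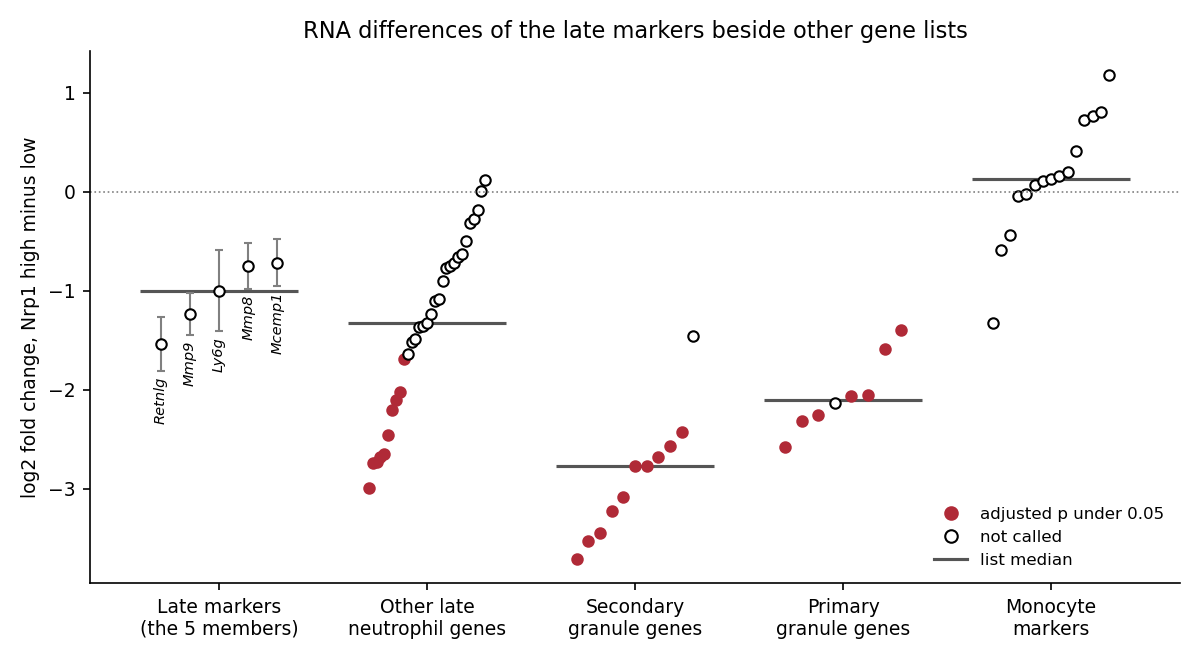
Log2 fold change (Nrp1 high minus Nrp1 low) of each tested gene in 5 lists, with filled points for genes called at adjusted p under 0.05 and a line at the list median. Whiskers on the 5 late markers are SE. The late markers lie between -1.54 and -0.71, while the other late neutrophil genes run from -2.99 to 0.12.

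Summed over the 5 genes, the late markers held 1038, 686.2 and 998.6 CPM in the low libraries and 505.0, 544.2 and 476.2 CPM in the high libraries. Mcemp1 gave 45.7 to 56.6% of this sum of CPM, which are not corrected for length. The 11 secondary granule genes together held 20570 to 32142 CPM in the low and 2345 to 3116 CPM in the high libraries. The ratio of the late to the secondary sum was thus 0.0323, 0.0334 and 0.0338 in the low libraries. In the high libraries it was 0.215, 0.175 and 0.199. The low libraries lay close together in this ratio, although both sums were lowest in replicate 2. All 3 high libraries lay above them. That follows from the choice of the 5 genes, so the ratio is a description only.

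**Figure D3:**
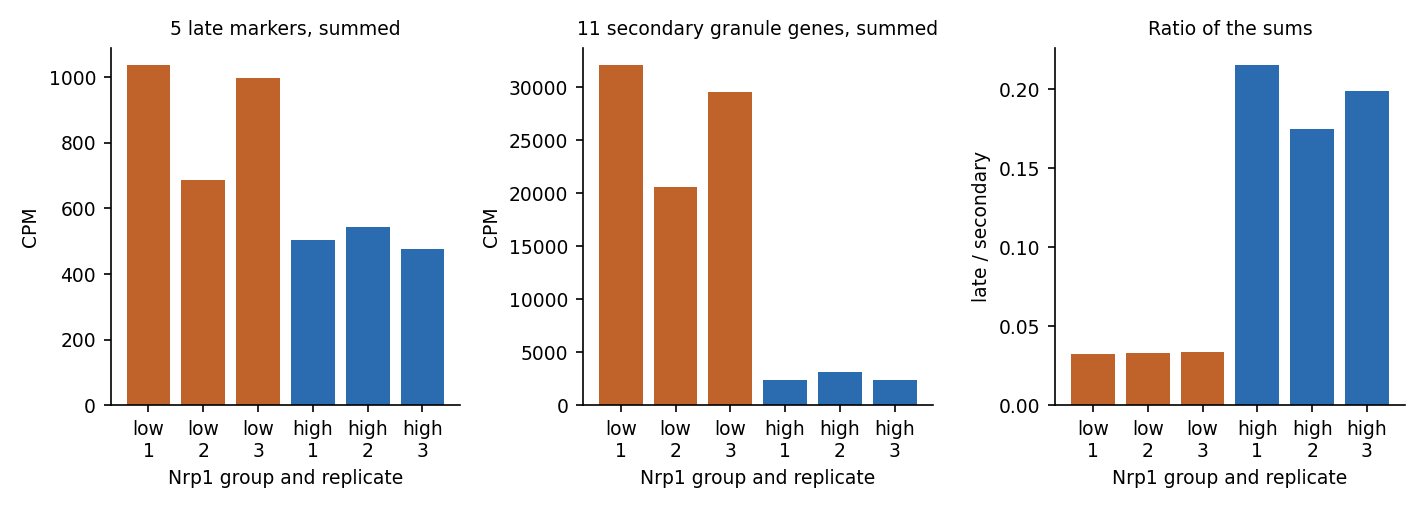
Summed CPM of the 5 late markers (left), summed CPM of 11 secondary granule genes (middle) and the ratio of these sums (right) in each RNA library, all from 0. The ratio is 0.0323 to 0.0338 in Nrp1 low and 0.175 to 0.215 in Nrp1 high, a direction that follows from the choice of the 5 genes.

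A small difference was not general among late neutrophil genes. Of 31 others from a list of late neutrophil and tertiary granule genes, 10 fell by edgeR's test and 0 rose (0.676% and 0.00643% of all genes), with a median log2 fold change of -1.32. The largest differences were those of S100a9 and S100a8, the subunits of calprotectin, at -2.99 and -2.74, and of Lrg1, a secreted glycoprotein, at -2.73. Next were Wfdc21, a small secreted protein (-2.68), Stfa2l1, a stefin with close copies in the genome (-2.65, uncertain for that reason), and Cxcr2, the chemokine receptor of mature neutrophils (-2.46). Padi4, which citrullinates histones, was at -2.20, Il1r2, the decoy interleukin-1 receptor, at -2.10, Anxa1, a phospholipid-binding protein, at -2.02, and Fpr1, a formyl peptide receptor, at -1.69.

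Most of the 31 lay in the range of the 5 late markers (-1.54 to -0.71) or nearer to 0, and none of these was called. The list median of -1.32 lay in that range too. Csf3r, the G-CSF receptor, had a log2 fold change of -0.66, Hp (haptoglobin) -0.77 and Ccl6, a chemokine, -0.75. Itgam, the CD11b integrin chain, had 0.12. These 4 were named after their values were seen. The number of the 31 called lower was 4 without Nrp1 low replicate 3, 3 without high replicate 1, 4 without high replicate 2, 0 without high replicate 3 (21 at an unadjusted p under 0.05) and 18 with DESeq2.

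Among the other metalloproteinases and their inhibitors, 10 of 24 were tested, and edgeR, DESeq2 and limma-voom each called 0 of them (1 at an unadjusted p under 0.05 in each). In edgeR's fit that gene was Reck, a membrane-anchored inhibitor, with means of 10.2 (low) and 2.20 CPM (high). Timp2, a secreted inhibitor, had 26.4 and 17.0 CPM. Mmp27, the neighbour of Mmp8, was named after its values were seen, and had at most 9 counts in any library.

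Some transcription factors of the granulocyte lineage were lower in Nrp1 high cells. Of 14 granulocyte and monocyte factors 3 fell and 0 rose by edgeR's test. Cebpe, which drives secondary granule genes, fell from 388.0 to 70.1 CPM, Gfi1, a repressor needed for neutrophil differentiation, from 44.1 to 10.7 CPM, and Klf5, a Kruppel-like factor, from 20.8 to 6.19 CPM. The count of 3 became 2 without Nrp1 low replicate 2, 1 without high replicate 2, and 0 without low replicate 3, high replicate 1 or high replicate 3 (5, 5 and 4 lower at an unadjusted p under 0.05). Of the 14, 7 had a log2 fold change below 0 and 7 above 0. Other C/EBP genes, Spi1 (the gene of PU.1) and 2 RUNX genes are named here because their motifs were searched. None of them was called, and they went both ways. Cebpb, Cebpd and Spi1 had means of 473.2, 186.9 and 906.7 CPM (low) and 423.9, 129.1 and 589.2 CPM (high). Cebpa, Runx1 and Runx3 had 18.8, 64.3 and 10.2 CPM (low) and 30.1, 97.7 and 18.5 CPM (high).

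Across the 6 libraries, the genes most like each late marker in log2(CPM + 1) were named by Pearson's r, among about 8270 genes with a mean of at least 10 CPM. Galns, Twf2 and Kcnn4 were most like Ly6g (r = 0.996, 0.983 and 0.983). Rab3d, Med21 and Wfdc17 were most like Mcemp1 (0.996, 0.995 and 0.994), and Tppp3, Hcst and Ndufaf4 most like Retnlg (0.994, 0.993 and 0.993). Tmem50b, Rnf114 and Nudt16 were most like Mmp8 (0.998, 0.996 and 0.996), and Klf5, Fmo5 and Gcnt2 most like Mmp9 (0.989, 0.988 and 0.986). Values above 0.95 were reached by 4.21% of genes for Mmp8, 1.78% for Mcemp1, 1.16% for Retnlg, 0.689% for Mmp9 and 0.544% for Ly6g. With 6 libraries in 2 groups such values are a description only.

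Primary granule genes and markers of some other cells were also lower in Nrp1 high cells, while the dendritic cell sum was higher. Of 8 primary granule genes 7 fell (Ms4a3, Fcnb, Prss57, Serpinb1a, Prtn3, Elane and Ctsg), with sums of 12590 to 19650 CPM in the low and 2897 to 5127 CPM in the high libraries. Of 6 platelet markers 3 fell (Ppbp, Gp5 and Itga2b), with sums of 51.3 to 67.1 against 11.5 to 14.6 CPM. Among 6 basophil, mast cell and eosinophil markers tested, Hdc (histidine decarboxylase) fell, with sums of 91.2 to 160.3 against 45.3 to 69.2 CPM. The 8 macrophage markers held 395.2 to 472.1 against 231.5 to 274.4 CPM, with 0 called by edgeR, 3 by DESeq2 and 1 by limma-voom (6 lower at an unadjusted p under 0.05). B cell markers summed to 311.6 to 391 against 294.2 to 324.4 CPM, T cell markers to 24.2 to 34.2 against 19.6 to 33.2, NK markers to 20.4 to 29.9 against 8.17 to 15.6, and dendritic cell markers to 9.24 to 14.5 against 14.9 to 27.0. The B cell and T cell sums overlapped between groups, and so did the erythroid sum (3439 to 6407 against 3444 to 4137 CPM).

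Without Nrp1 high replicate 3 none of these calls remained. The primary granule genes called were 4 without low replicate 3 and 3 without high replicate 1. The platelet markers called were 1 without low replicate 2, high replicate 1 or high replicate 2 and 0 without low replicate 3, and Hdc's list had 0 without low replicate 3, high replicate 1 or high replicate 2. No marker of these cells was at 0 in all libraries of a group, and Fcer1a, a mast cell and basophil receptor chain, had no row. Mitochondrially encoded genes took 0.784 to 1.57% of counts in the low and 1.29 to 3.01% in the high libraries. The part of these cells and of RNA quality in the late marker values was not tested.

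Open chromatin at the late markers was compared in the authors' deposited table, which gives a fold for each region and no value per library. Every ATAC direction below takes the fold as high against low, from the name of the comparison in the labels, since no column states it. Read the other way, each would turn, and the region called at Mmp8 would be higher. Of 9 regions assigned to these genes, 1 was lower in Nrp1 high at the deposited FDR under 0.05, and 0 were higher (4.99% and 2.56% of all regions, and 4.07% lower among regions within 3000 bases of a start). The same region was lower at FDR under 0.01 (1.4% of all regions). It spans the Mmp8 start (chr9:7558150-7558549, Promoter) and contains the whole Mmp8 sequence shown above. In the authors' deposited table its log2 fold was -0.66, or 0.634-fold, with an FDR of 0.00989. A second Mmp8 region 1704 bases upstream (chr9:7556353-7556752) had almost the same deposited fold, -0.65, with an FDR of 0.0723. A region near the 3′ end of Mmp8 (chr9:7567311-7567710), which the authors' deposited table assigns to Mmp27, had -0.15 (FDR 0.542).

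The 3 Mcemp1 regions had folds of both signs in the authors' deposited table. The one at the start (chr8:3665469-3665868) had a log2 fold of -0.07, the one 468 bases upstream (chr8:3664887-3665286) -1.18, and the one 888 bases upstream (chr8:3664467-3664866) 0.63. Their deposited FDR values were 0.902, 0.202 and 0.0616, so none passed. The fold of -1.18 lay at percentile 0.779 of all regions, with a deposited p of 0.0461.

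Mmp9 had 3 regions, with deposited log2 folds of 0.18 (4433 bases upstream, intergenic), -0.06 (2111 bases past the start) and 0.16 (828 bases before a second annotated transcript start) in the authors' deposited table. Their FDR values lay between 0.697 and 0.895. Retnlg had 1 region, 7289 bases upstream (chr16:48864933-48865332), with a log2 fold of -0.08 (deposited FDR 0.913). Ly6g had none, and the listed region nearest to its start lay 13034 bases away and was assigned to Ly6a2. The 4 regions of Retnlg and Mmp9, the genes with the largest RNA differences of the 5, thus had deposited log2 folds between -0.08 and 0.18.

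**Figure D4:**
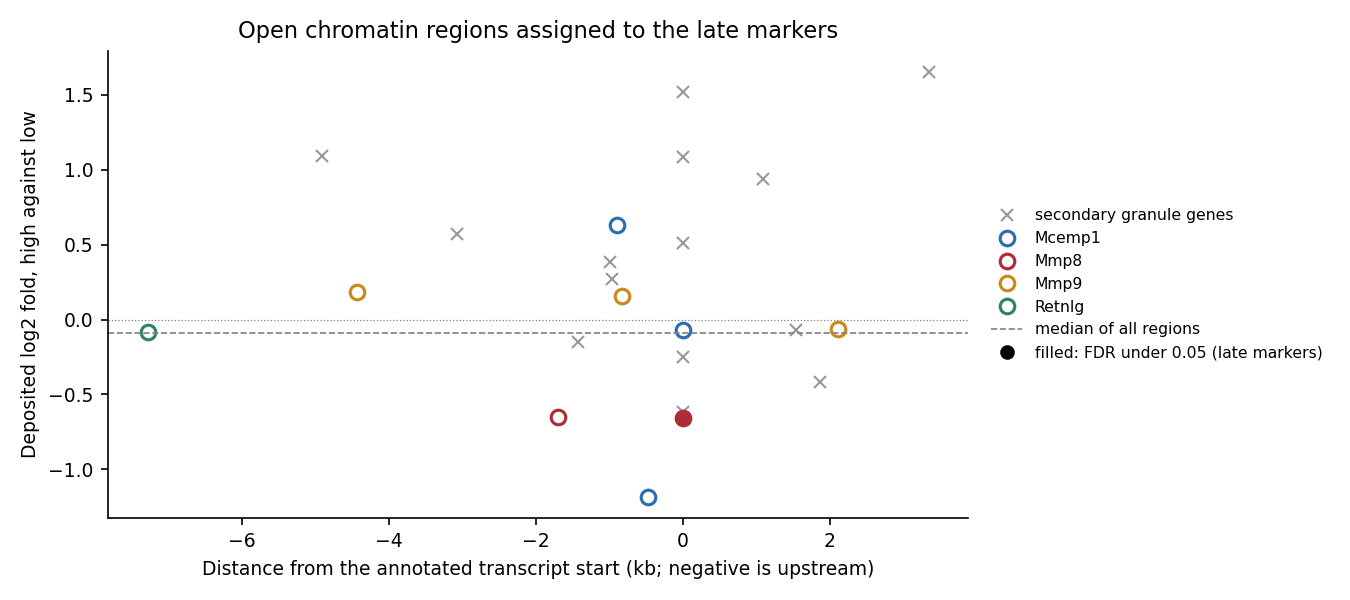
Deposited log2 fold (high against low) of the 9 regions assigned to late markers, by distance in kb from the annotated transcript start, with the 14 regions of secondary granule genes as crosses. Filled is the 1 late marker region with a deposited FDR under 0.05, at the Mmp8 start. The dashed line is the median of all regions, -0.09.

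The median deposited fold was -0.07 over the 9 late marker regions and -0.09 over all regions. For the 14 regions of 9 secondary granule genes it was 0.45. Of these 14 in the authors' deposited table, 4 were higher at FDR under 0.05, among them the Camp start at 1.09, and 1 was lower, the Ltf start at -0.62. The RNA of the secondary granule genes was lower in Nrp1 high cells, so most of their called regions had the opposite sign to their RNA. The 50 regions of monocyte markers had a median of -0.20 in the authors' deposited table, with 5 lower and 0 higher, while the median RNA log2 fold change of those genes was 0.13. At Nrp1 itself, the sorted gene, the authors' deposited table lists 8 regions, of which 2 were higher (1.502 and 1.474) and 1 lower (-0.39) at FDR under 0.05. These values were looked up after the others, and they do not settle the direction of the fold. The spread over libraries behind each fold is unknown here.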

How the data were processed

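RNA libraries were made with a low-input template-switching kit, per the labels' protocols. The authors deposited estimated counts per gene as whole numbers. HISAT2, StringTie and GRCm38 are named in the submitters' processing notes, without versions. The authors also deposited their own ATAC comparison of 40796 regions, giving the log2 fold of each region with its p-value and FDR (adjusted p-value). Those notes name BWA, MACS2, ChIPseeker and DiffBind among others. The labels point to a comparison made with DESeq2, while the table used here carries edgeR in its name. Regions were 400 bases wide in 99.2% of cases.

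From the counts, 15541 genes passed edgeR's filterByExpr, all 5 late markers among them. After TMM scaling, edgeR 4.0.16 in R 4.3.3 compared the groups by its robust quasi-likelihood F test, with no covariate. Total counts were 23395363 to 35127433 per library. The sources used here do not say whether counting used strand, so overlapping and antisense genes cannot be told apart. The code was tested on simulated counts. Other settings tried were DESeq2 1.42.0, limma-voom (limma 3.58.1), scaling by RLE, upper quartile or library totals, no filter, the replicate number as a block, and leaving out each library. Same-numbered libraries deviated from their group means with r of -0.342, -0.394 and 0.032, so the numbers were not taken to pair libraries.

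Genes were named by rule: the 5 late markers, all secondary granule genes, called genes of each other list or else up to 2 of lowest p, the 3 most similar genes per marker, and every assigned region. Markers of other cells are given mostly as sums. Any other gene was picked with its values in view. The genes and lists were chosen with earlier results of these data known. Promoter sequences are from RefSeq on GRCm38.p6, found for 4 of 5 genes.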

Additional observations from a re-analysis of the deposited data

How the results depend on the processing

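All 5 late markers kept their direction under the 13 alternatives run, and the medians of the late markers (-1.23 to -0.76) and of the secondary granule genes (-3.05 to -2.59) did so too. Ly6g, Mcemp1 and Mmp8 were called under none of them. Retnlg passed the threshold with DESeq2 (-1.52) and without a filter on low counts (-1.53), and Mmp9 with DESeq2 (-1.22), limma-voom (-1.23) and upper-quartile factors (-1.25). Leaving out 1 library at a time, Retnlg ranged from -1.73 to -1.26, called without Nrp1 low replicate 1 or 2, and Mmp9 from -1.32 to -1.14, called without low replicate 1. Library totals moved the median of all genes by 0.19, and the late markers with it. Ly6g had the fewest counts of the 5 (75 in its lowest library) and the largest standard error, 0.41 on the log2 scale. Its high libraries also spread most (CV 47.0%), and the part of depth in this was not tested.

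The number of genes called over the whole table was 106, against 403 with DESeq2 (326 lower) and 0 to 125 when 1 library was left out: 29 without low replicate 3, 28 without high replicate 1, 50 without high replicate 2 and 0 without high replicate 3 (909 at an unadjusted p under 0.05). A replicate block by number in edgeR's fit called 0 genes (943 at an unadjusted p under 0.05), 0 of the 31 other late neutrophil genes (21) and 0 of the 11 secondary granule genes (11). In no case did a library correlate best with the one of its own number in the other group. Counts for these lists were added after the data were seen. The other late genes called lower were 18 with DESeq2 and 0 to 10 when 1 library was left out, and the secondary granule genes 0 to 10. The cause of these changes was not tested. The 1 late marker region called in the ATAC table was called at FDR under 0.01 as well, and also when only regions near a start or within the gene were counted. Each of these settings counted the same region again, so none of them is a separate test of it.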

Other observations

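The surroundings of the late marker genes were examined in the authors' deposited table after the values above had been seen. Within 50000 bases on either side of the start, Mcemp1 had 12 listed regions, Mmp8 8, Ly6g 5, Mmp9 4 and Retnlg 2. At the deposited FDR under 0.05, 2 of these were lower near Mmp8 and 1 near Mcemp1, and 0 were lower near the other 3 genes. No region in these 5 windows was higher at that FDR. Together 3 of 31 regions were lower, 9.68%, beside 4.99% of all regions, and this small count is given as a description. If the fold runs the other way, these 3 were higher and none lower. The number of regions differs between the windows, so the counts cannot be compared as rates.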
